A study of Mus musculus with 13 samples.

Results

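The genes described here are 37 listed genes of sterol and fatty acid synthesis that are controlled by, or work beside, the transcription factors SREBP1 and SREBP2. They were taken by gene symbol from a list, and comprise 18 enzymes of sterol synthesis, 5 regulators of SREBP, 3 sterol transport proteins, 8 genes of fatty acid synthesis and desaturation, and 3 genes of the LXR and cholesterol export axis. All 37 were found among the 35498 genes of the files. A filter on low counts kept 36 of them and 13044 genes in all, and the member left out was Abcg1. The libraries are 13 poly(A) mRNA libraries of cultured mouse melanoma lines. The series concerns soluble adenylyl cyclase (sAC, gene Adcy10), an enzyme that makes cyclic AMP, placed in a chosen compartment of the cell. Lines titled NLS, with nuclear as their sAC compartment after doxycycline, had 3 libraries each without doxycycline (t0), with 6 h of doxycycline in the medium (t6) and with 48 h of it (t48). Lines titled LacZ had 2 libraries each at t0 and t48. The LacZ t48 libraries also carry the compartment label nuclear, against their title, and were kept as LacZ. Every group holds 1 library of each cell line, numbers 6, 7 and 16 for NLS and 10 and 12 for LacZ. A difference between NLS and LacZ libraries is therefore also a difference between cell lines, and the 2 cannot be told apart. The sources used here do not say how the lines were derived or which promoter drives a construct, and no t6 libraries of LacZ lines were analysed here. Nothing says that libraries of a line came from separate cultures, and the p-values reflect how far these libraries vary, which may be technical.

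Cells make cholesterol from acetyl-CoA through mevalonate, isoprenoid diphosphates, squalene and lanosterol. When sterols in the endoplasmic reticulum run low, the escort protein SCAP carries the SREBP precursors to the Golgi, where they are cut and release a transcription factor that acts on the promoters of these genes. Insig proteins hold SCAP back when sterols are plentiful. SREBP2 acts mainly on sterol genes and SREBP1 mainly on fatty acid genes, while the nuclear receptor LXR, which is activated by oxysterols, acts on export genes such as Abca1 and on Mylip.

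Promoter sequences are shown for an early enzyme of the pathway (Hmgcs1), for a mid-pathway and a late enzyme whose transcripts fell at t48 in the NLS lines (Idi1, Msmo1), and for the last enzyme, whose transcripts rose (Dhcr7). Each runs 5′ to 3′ on the strand of the gene from 150 bases before to 20 bases after the RefSeq start on GRCm38.p6, and capitals mark matches to a sterol regulatory element (TCACNCCAC) or to a CCAAT box (CCAAT or its complement ATTGG). The intervals are chr13:119690201-119690370, plus strand for Hmgcs1, chr13:8885456-8885625, plus strand for Idi1, chr8:64733559-64733728, minus strand for Msmo1, and chr7:143823017-143823186, plus strand for Dhcr7, of whose 3 listed starts the one nearest to the start of its annotated gene is shown.
Hmgcs1: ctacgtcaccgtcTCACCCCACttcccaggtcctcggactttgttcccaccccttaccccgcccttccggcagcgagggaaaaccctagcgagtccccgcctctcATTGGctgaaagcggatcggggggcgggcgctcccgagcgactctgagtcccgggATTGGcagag
Idi1: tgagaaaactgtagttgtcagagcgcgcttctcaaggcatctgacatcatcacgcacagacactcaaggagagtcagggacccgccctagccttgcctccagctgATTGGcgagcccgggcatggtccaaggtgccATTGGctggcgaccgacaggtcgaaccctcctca
Msmo1: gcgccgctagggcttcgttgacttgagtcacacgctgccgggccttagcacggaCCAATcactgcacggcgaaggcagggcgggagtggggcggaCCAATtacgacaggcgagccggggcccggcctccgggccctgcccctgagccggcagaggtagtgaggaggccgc
Dhcr7: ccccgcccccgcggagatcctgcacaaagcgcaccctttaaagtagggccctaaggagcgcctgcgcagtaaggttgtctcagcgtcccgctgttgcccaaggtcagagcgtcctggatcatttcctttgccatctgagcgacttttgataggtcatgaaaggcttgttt

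The letters of the sterol element occurred in the promoter of 1 of the 28 members with an entry in the RefSeq table, Hmgcs1, where they began 137 bases before the start (position -137, TCACCCCAC). They were held by 1.44% of the 27025 genes of that table, within the window from 250 bases before to 50 bases after a start, on either strand. The CCAAT box occurred in 22 of the 28 members, against 41.1% of the genes in the table. Of the sterol synthesis enzymes with an entry 14 of 15 held it and of the fatty acid genes 2 of 5. A gene with several listed starts was counted if any of them held the letters, and Dhcr7 is among the 14 through a start other than the one printed, whose sequence holds no CCAAT box. The GC box (GGGCGG or its complement), to which Sp1 binds, occurred in 24 of the 28 members and in 38.2% of the genes. The E-box CACGTG, which reads the same on both strands, occurred in 6 of the 28 and in 8.09% of the genes. Matches were counted on both strands whether or not they overlapped a match of another motif, and a match is a run of letters, not measured binding.

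Libraries held 18512887 to 22584628 estimated reads. Levels below are CPM, counts scaled to a common library size with TMM factors, unless TPM is named, a unit that also divides by transcript length and so lets genes be compared. Values of a group follow the order of lines 6, 7 and 16 for NLS and 10 and 12 for LacZ. Reads of Adcy10, the check of the construct, did not follow the time labels. They stood at 339.2 to 371.2 CPM in line 6 and 181.2 to 200.4 CPM in line 7, at 0.671 to 1.22 CPM in line 16, and at up to 0.167 CPM in LacZ libraries. The 7 listed melanocyte markers summed to 3.24 to 5.86 CPM in all libraries, with Tyrp1 at 0 in each group. The 7 fibroblast markers, mainly collagens, summed to 9992 to 12162 CPM in NLS t0, 7787 to 9435 CPM in NLS t6 and 15975 to 17068 CPM in NLS t48 libraries, so that t6 lay below and t48 above t0, and to 7115 to 7504 CPM in LacZ t48 and 8052 to 8203 CPM in LacZ t0 libraries. Of these 7, Lum was at 0 in every group but LacZ t0, and Thy1 was at 0 in NLS t6. Neither passed the filter on low counts, and the sum is not a measure of the whole list. From t0 to t48 the log2 difference of NLS from LacZ libraries fell for Pdgfra, from 3.80 to 1.95. It rose for Col1a1, Col1a2, Col3a1 and Pdgfrb. The 5 leukocyte markers summed to 11.5 to 12.7 CPM in NLS t0, 12.9 to 14.5 CPM in NLS t6 and 7.69 to 8.80 CPM in NLS t48 libraries, and to 7.73 to 9.06 CPM in LacZ t48 and 5.79 to 6.70 CPM in LacZ t0 libraries. Of these 5, Cd3e was at 0 in every group and Ptprc in every group but LacZ t48. Only Cd68 passed the filter on low counts, so the sum is not a measure of the whole list. The 4 keratinocyte markers summed to at most 2.87 CPM and 3 endothelial markers to at most 4.22 CPM. The 3 hepatocyte markers summed to at most 0.0556 CPM and 4 adipocyte markers to at most 1.45 CPM. Melanocyte markers were thus at or near 0 in these libraries of lines labelled melanoma. Since Adcy10 did not follow the labels, t0, t6 and t48 below stand for libraries so labelled. Whether these marker shifts play a part in the differences below was not tested. In bulk libraries fewer cells of a type and less RNA per cell cannot be told apart.

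Transcripts of sterol synthesis fell in the NLS lines. At t48 against t0, 14 of the 18 enzymes were lower and 1, Dhcr7, was higher, in a comparison in which 11.3% of all genes tested were lower and 14.8% higher (edgeR quasi-likelihood test, Benjamini-Hochberg adjusted p below 0.05). The median log2 fold change of the 18 was -0.47, against -0.0066 over all genes. At t6 against the same t0 libraries 9 were lower and 1 higher, with 9.23% of all genes lower and 11.6% higher, and the median of the 18 was -0.25. Of the 8 fatty acid genes, 5 were lower and 1 higher at t48, with a median of -0.26, and 3 were lower and none higher at t6, with a median of -0.10. Line by line, 16 of the 18 sterol enzymes were lower at t48 in all 3 lines and 1 was higher in all 3. Of all genes tested 49.86%, 49.95% and 49.94% were lower at t48 in lines 6, 7 and 16, by ratios with 0.1 CPM added. The share of all genes lower in all 3 lines was not counted. Over the 18 the median log2 ratio in lines 6, 7 and 16 was -0.45, -0.45 and -0.52. With the cell line as a block 39.8% of all genes were called at t48 and 34.7% at t6, and the block added Ebp at t48 (lower, adjusted p = 0.0131) and Nsdhl, Hsd17b7 and Sc5d at t6 (lower, adjusted p = 0.00187, 0.00752 and 0.0342).

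Summed per length, the 18 sterol enzymes held 1408, 1511 and 1422 TPM at t0, 1310.1, 1283 and 1231 TPM at t6 and 1061, 1159 and 1037 TPM at t48 in the NLS lines. In the LacZ lines they held 1737 and 1809.9 TPM at t48 against 1989 and 1985 TPM at t0. The sum in every NLS library thus lay below that in every LacZ library. The 8 fatty acid genes held 1029.5, 1192 and 1094 TPM at t0, 939.9, 1002 and 941 TPM at t6 and 967, 1113 and 932 TPM at t48 in the NLS lines, where t48 and t0 overlapped. They held 1296 and 1342 TPM at t48 against 1481 and 1562 TPM at t0 in the LacZ lines. By TPM the most abundant member was Scd2 (439 to 867), a stearoyl-CoA desaturase. The squalene epoxidase gene Sqle (272 to 353) came next except in the LacZ t0 libraries, where Fdps (345 and 339.9 TPM) was above Sqle (339.9 and 337 TPM).

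**Figure D1:**
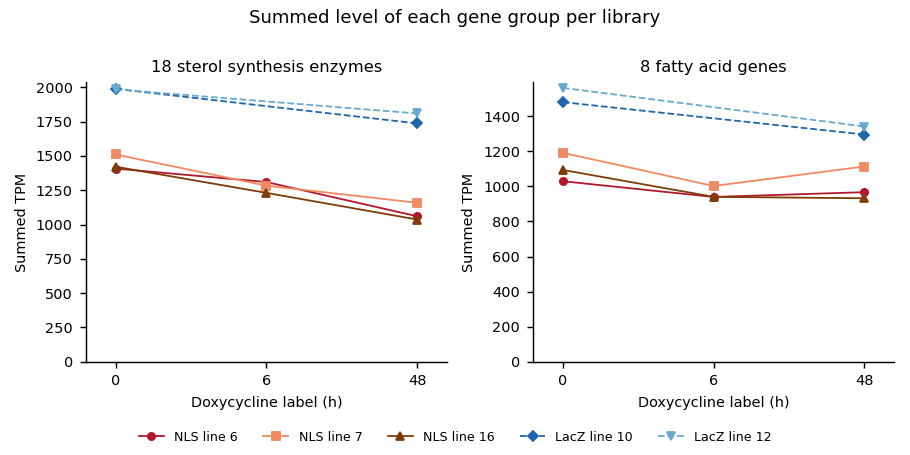
Summed TPM of the 18 sterol synthesis enzymes (left) and the 8 fatty acid genes (right) against the doxycycline label in h, with 1 line per cell line and 1 point per library. The sterol sum at 48 h was 1061, 1159 and 1037 TPM in NLS lines 6, 7 and 16 and 1737 and 1809.9 TPM in LacZ lines 10 and 12.

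The 5 listed genes of the steps from acetyl-CoA to isopentenyl diphosphate were all lower at t48. Acat2, the cytosolic thiolase that makes acetoacetyl-CoA, had 81, 87.2 and 76.2 CPM at t0, 65.7, 69.5 and 58.5 CPM at t6 and 52.5, 54.9 and 51.4 CPM at t48 in NLS libraries. Its 3 times did not overlap, and the log2 fold change was -0.62 (SE 0.069, adjusted p = 2.15e-05) at t48 and -0.34 (SE 0.068, adjusted p = 0.00371) at t6 against t0. Hmgcs1, the cytosolic HMG-CoA synthase, had 187, 224 and 182 CPM at t0, 204, 210.0 and 179.9 CPM at t6 and 135, 152 and 123 CPM at t48 in the same libraries. Its t6 libraries overlapped those of t0 and its t48 libraries lay below both, with a log2 fold change of -0.54 (SE 0.092, adjusted p = 0.000915) at t48 and no call at t6 (adjusted p = 1). Mvk, mevalonate kinase, had 25.2, 24 and 26.8 CPM at t0, 16.9, 17.5 and 19.97 CPM at t6 and 16.9, 16.1 and 17.2 CPM at t48. Every t6 and t48 library lay below every t0 library, and the log2 fold change was -0.59 (SE 0.093, adjusted p = 0.000391) at t48 and -0.48 (SE 0.092, adjusted p = 0.00254) at t6. Pmvk, phosphomevalonate kinase, had 22.1, 22.1 and 18.6 CPM at t0, 17.3, 19.3 and 18.5 CPM at t6 and 16.3, 17.7 and 16.5 CPM at t48. Of the later times t48 alone was clear of t0, at -0.32 (SE 0.088, adjusted p = 0.0178). Mvd, the decarboxylase that yields isopentenyl diphosphate, had 19.4, 17.9 and 19.6 CPM at t0, 13.9, 16 and 16.8 CPM at t6 and 14.6, 15.5 and 13.8 CPM at t48. Both later times lay below t0, at -0.37 (SE 0.092, adjusted p = 0.00891) for t48 and -0.29 (SE 0.092, adjusted p = 0.0386) for t6.

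Idi1, the isomerase that makes dimethylallyl diphosphate, showed the lowest log2 fold change of the 18 enzymes at t48. It had 104, 124 and 96.3 CPM at t0, 101, 110.0 and 97.8 CPM at t6 and 56.4, 69.4 and 50.6 CPM at t48 in NLS libraries, so that t6 overlapped t0 and t48 lay below both, and the change at t48 was -0.88 (SE 0.11, adjusted p = 8.89e-05). Fdps, farnesyl diphosphate synthase, had 163, 164 and 156 CPM at t0, 146, 138 and 128 CPM at t6 and 111, 117 and 109 CPM at t48. Its groups stepped down without overlap, at -0.52 (SE 0.054, adjusted p = 1.22e-05) at t48 and -0.23 (SE 0.054, adjusted p = 0.0088) at t6. Fdft1, squalene synthase, had 181, 203 and 181 CPM at t0, 166, 154 and 143 CPM at t6 and 142, 158 and 135 CPM at t48. Libraries of t6 and t48 lay below those of t0, at -0.38 (SE 0.075, adjusted p = 0.00232) and -0.28 (SE 0.075, adjusted p = 0.0163) for t48 and t6. Sqle, which adds the epoxide to squalene, had 633, 615 and 632 CPM at t0, 521, 509.7 and 497 CPM at t6 and 497, 495 and 478 CPM at t48. Libraries of both later times lay below those of t0, with -0.36 (SE 0.042, adjusted p = 4e-05) at t48 and -0.30 (SE 0.042, adjusted p = 0.000285) at t6. Between t6 and t48 the groups all but touched, at 497.13 CPM for the lowest t6 and 496.88 CPM for the highest t48 library. Lss, lanosterol synthase, had 51, 61.4 and 52.6 CPM at t0, 42.3, 44.6 and 37.7 CPM at t6 and 37, 46.4 and 34.4 CPM at t48. Both times lay below t0, at -0.48 (SE 0.11, adjusted p = 0.00529) at t48 and -0.41 (SE 0.11, adjusted p = 0.0175) at t6. Some loci of the enzymes are shared, so reads there may have been divided between genes. On the same strand Fdps shares 7512 bases with the protein-coding gene Gm43738, and Tm7sf2 shares 532 bases with Vps51. On the opposite strand Mvd shares 9822 bases with Gm20388, Lss shares 11268 bases with the antisense gene 4930483K19Rik, and Fdft1 shares 774 bases with Ctsb.

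Of the enzymes that turn lanosterol into cholesterol, Cyp51, the lanosterol demethylase, had 314, 348 and 294 CPM at t0, 245, 264 and 227 CPM at t6 and 210.1, 245 and 192 CPM at t48 in NLS libraries. Its later times lay below t0, at -0.56 (SE 0.087, adjusted p = 0.000391) at t48 and -0.38 (SE 0.087, adjusted p = 0.008) at t6. Msmo1, the methylsterol monooxygenase, had 93.9, 98.8 and 90.4 CPM at t0, 73, 69.9 and 69.6 CPM at t6 and 54.8, 56.3 and 53.2 CPM at t48. It stepped down at each time without overlap, at -0.78 (SE 0.058, adjusted p = 6.04e-07) at t48 and -0.41 (SE 0.058, adjusted p = 0.000275) at t6. Nsdhl, the dehydrogenase that acts after Msmo1, had 54.8, 60.0 and 55.4 CPM at t0, 51.6, 46 and 44.5 CPM at t6 and 44.9, 45.5 and 40.4 CPM at t48. Its t48 change was -0.38 (SE 0.088, adjusted p = 0.00626), while the t6 change of -0.26 (SE 0.088, adjusted p = 0.051) missed the threshold. Sc5d, a sterol desaturase, had 50.1, 59.9 and 43.9 CPM at t0, 43.1, 48.5 and 44.2 CPM at t6 and 32.2, 35.4 and 28 CPM at t48. Here t6 overlapped t0 and t48 lay below both, at -0.69 (SE 0.11, adjusted p = 0.000483) at t48. Dhcr7, the reductase that makes cholesterol in the last step, went the other way, with 45.2, 48.6 and 46.1 CPM at t0, 69.7, 66.2 and 65.3 CPM at t6 and 62.2, 66.3 and 59.7 CPM at t48. Every t6 and t48 library lay above every t0 library, at 0.43 (SE 0.058, adjusted p = 0.000118) for t48 and 0.52 (SE 0.058, adjusted p = 3.53e-05) for t6.

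The remaining 3 enzymes were not called at t48 or t6. Tm7sf2, a sterol reductase with few reads, had 2.12, 2.62 and 1.72 CPM at t0, 2.62, 2.64 and 1.56 CPM at t6 and 1.74, 1.38 and 1.59 CPM at t48, and a log2 fold change of -0.46 (SE 0.23, adjusted p = 0.164) at t48. Hsd17b7, a ketoreductase of the demethylation complex, ranged from 37.2 to 67.5 CPM over all 13 libraries with a t48 change of 0.025 (SE 0.085, adjusted p = 0.863). Ebp, a sterol isomerase, ranged from 53.9 to 75.4 CPM with -0.19 (SE 0.10, adjusted p = 0.172).

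Without line 6, calls over all genes fell from 3402 to 1592 at t48 and from 2716 to 994 at t6. Leaving out 1 library or 1 line in turn, in 9 fits for each comparison, kept 12 to 15 sterol enzymes called at t48 and 5 to 10 at t6, the fewest in both cases without line 6. At t48 the calls that failed were Pmvk in 6 (adjusted p up to 0.183, without line 6), Mvd in 2 (adjusted p up to 0.088, without line 16) and Lss in 1 (adjusted p up to 0.0548, without line 6). At t6 they were Mvd in 6 (adjusted p up to 0.323, without line 6), Fdft1 in 4 (adjusted p up to 0.0707, without the t6 library of line 16), Lss in 4 (adjusted p up to 0.0804, without line 6), Mvk in 1 (adjusted p up to 0.0634, without line 6), Cyp51 in 1 (adjusted p up to 0.0903, without line 6), Acat2 in 1 (adjusted p up to 0.0524, without line 6) and Fdps in 1 (adjusted p up to 0.051, without line 16).

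Set directly against t6, t48 was lower for 6 of the 18 and higher for none, in a comparison in which 13.6% of all genes tested were lower and 14.6% higher. They were Idi1 (log2 fold change -0.81), Hmgcs1 (-0.54), Sc5d (-0.50), Msmo1 (-0.37), Fdps (-0.29) and Acat2 (-0.29), with adjusted p between 0.000156 and 0.00705. Idi1, Hmgcs1 and Sc5d were not called at t6 against t0 (adjusted p = 0.696, 1 and 0.261), while their t48 levels were lower than those of t6. For Sqle, Lss, Fdft1, Mvk and Mvd, already lower at t6, the t48 against t6 changes lay between -0.11 and -0.056 and none passed. Without line 6 the call of Acat2 was lost (adjusted p = 0.0986). With the cell line as a block 41.2% of all genes were called, and the calls of Cyp51 and Ebp (lower, adjusted p = 0.000981 and 0.00368) and Hsd17b7 (higher, adjusted p = 0.00255) were added. The comparisons of t6 and t48 with t0 share the t0 libraries, and each shares libraries with that of t48 with t6.

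**Figure D2:**
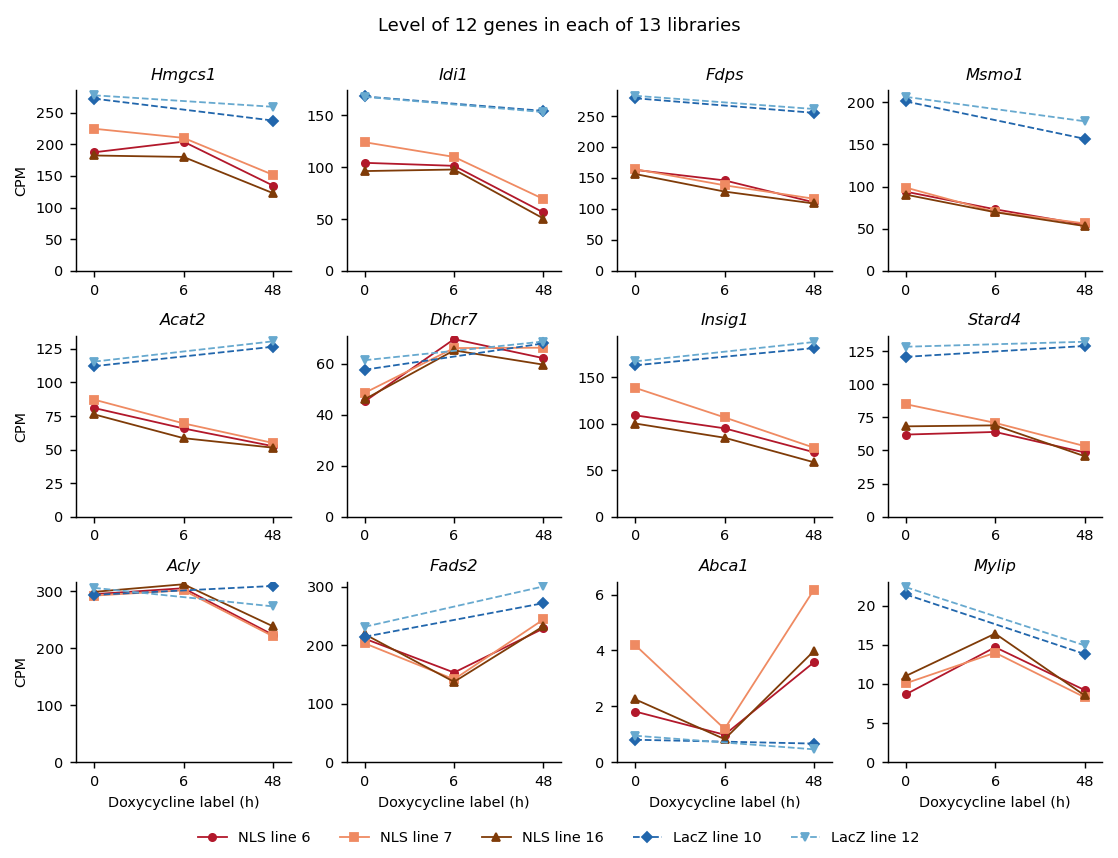
CPM of 12 genes against the doxycycline label in h, with 1 panel per gene, 1 line per cell line (solid NLS, dashed LacZ) and 1 point per library. Idi1 and Hmgcs1 overlap between 0 and 6 h and lie lower at 48 h in the NLS lines (56.4, 69.4 and 50.6 CPM for Idi1), Dhcr7 is higher from 6 h, and Fads2 and Abca1 dip at 6 h.

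Among the regulators of SREBP, Insig1 and Srebf2 were lower at t48 and none of the 5 was called at t6 by edgeR or by DESeq2, with 1 at an unadjusted p below 0.05 in edgeR. How many of all genes lay below that unadjusted threshold was not counted. Insig1, itself a target of SREBP, had 109, 139 and 100.2 CPM at t0, 95, 107 and 84.9 CPM at t6 and 69.3, 74.2 and 58.5 CPM at t48 in NLS libraries. Its t48 libraries lay below all others of the NLS lines, with a log2 fold change of -0.78 (SE 0.12, adjusted p = 0.000624) against t0 and -0.50 (SE 0.12, adjusted p = 0.00887) against t6. Srebf2, the gene of SREBP2, had 404, 417 and 416 CPM at t0, 385, 402 and 433 CPM at t6 and 315, 363 and 342 CPM at t48. The t48 libraries were again below the rest, at -0.28 (SE 0.066, adjusted p = 0.00709) against t0 and -0.26 (SE 0.066, adjusted p = 0.00965) against t6. Insig2, the second Insig gene, ranged from 68.3 to 118 CPM over all libraries and was not called (0.17, SE 0.14, adjusted p = 0.434, at t48), but with the cell line as a block it was higher at t48 (adjusted p = 0.00515) and lower at t6 (adjusted p = 0.000755). The block also called Insig1 lower at t6 (adjusted p = 0.000203). Srebf1, the gene of SREBP1, and Scap gave -0.0032 (SE 0.12, adjusted p = 0.99) and -0.063 (SE 0.091, adjusted p = 0.662) at t48. The call of Srebf2 at t48 was lost without line 6 (adjusted p = 0.0752), and against t6 it was lost in 3 of 9 fits (adjusted p up to 0.12, without line 16), as was that of Insig1 against t6 without line 6 (adjusted p = 0.0748).

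The transport genes went in different directions at t48. Stard4, a cytosolic sterol carrier and SREBP target, had 62, 85 and 68.3 CPM at t0, 64, 70.9 and 69 CPM at t6 and 48.5, 53.4 and 45.7 CPM at t48 in NLS libraries. It was lower at t48 than at both earlier times, at -0.54 (SE 0.10, adjusted p = 0.00125) against t0, without overlap. Npc1, the membrane protein that moves cholesterol out of lysosomes, had 75.1, 75.7 and 68.7 CPM at t0, 81.1, 73.9 and 72.4 CPM at t6 and 93.8, 87.4 and 85.3 CPM at t48. Its t48 libraries lay above all others of the NLS lines, at 0.28 (SE 0.071, adjusted p = 0.0106) against t0, a call lost in 3 of 9 fits (adjusted p up to 0.0893, without line 6). Npc2, its soluble partner, was lower at t48 than at t6 (-0.33, SE 0.082, adjusted p = 0.00847) but passed against t0 only with the cell line as a block (lower at t48, adjusted p = 0.00297, and higher at t6, adjusted p = 0.0287). Without line 6 the call against t6 was lost (adjusted p = 0.0544). For Stard4 against t6 the log2 fold change was -0.47 (SE 0.10, adjusted p = 0.00315), lost without line 16 (adjusted p = 0.0515), and for Npc1 it was 0.23 (SE 0.071, adjusted p = 0.0276), lost in 6 of 9 fits (adjusted p up to 0.103, without the t48 library of line 6).

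Genes that make and lengthen saturated fatty acids were mostly lower at t48. Acly, the ATP citrate lyase that supplies cytosolic acetyl-CoA, had 295, 292 and 299 CPM at t0, 305, 302 and 312 CPM at t6 and 223, 221 and 238 CPM at t48 in NLS libraries. It was lower at t48 only, at -0.38 (SE 0.053, adjusted p = 0.000182) against t0, with no overlap. Acaca, acetyl-CoA carboxylase, had 144, 143 and 142 CPM at t0, 138, 123 and 125 CPM at t6 and 118, 125 and 111 CPM at t48. Its t48 change was -0.28 (SE 0.068, adjusted p = 0.00838), and at t6 the change of -0.15 (SE 0.068, adjusted p = 0.141) passed only when lines were blocked (adjusted p = 0.0273). Elovl6, which lengthens saturated chains, had 76.2, 102 and 75.3 CPM at t0, 89.1, 100.2 and 84 CPM at t6 and 64.5, 75 and 61.1 CPM at t48. The t48 libraries lay below the rest, at -0.34 (SE 0.11, adjusted p = 0.0469) against t0 and -0.44 (SE 0.11, adjusted p = 0.0113) against t6. Fasn, fatty acid synthase, had 217, 202 and 219.8 CPM at t0, 230.0, 234 and 274 CPM at t6 and 187, 197 and 213 CPM at t48. Its t48 and t0 libraries overlapped (-0.10, SE 0.092, adjusted p = 0.477), while it was lower at t48 than at t6 (-0.31, SE 0.092, adjusted p = 0.0238), and at t6 it was higher than at t0 only with the block (adjusted p = 0.00351).

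The desaturases differed in their timing. Scd1, a stearoyl-CoA desaturase, had 498, 585 and 494 CPM at t0, 408, 439 and 367 CPM at t6 and 388, 453 and 355 CPM at t48 in NLS libraries. Both later times were lower than t0, at -0.40 (SE 0.10, adjusted p = 0.00993) at t48 and -0.38 (SE 0.10, adjusted p = 0.0161) at t6. Scd2, a close relative, had 1845, 2044 and 1885 CPM at t0, 1463, 1518 and 1413 CPM at t6 and 1605, 1778 and 1502 CPM at t48. It too lay below t0 at both times, at -0.24 (SE 0.064, adjusted p = 0.0137) at t48 and -0.39 (SE 0.064, adjusted p = 0.000848) at t6. The 2 Scd genes are alike in sequence, so the split of reads between them is less certain than their sum. Fads2, a desaturase of polyunsaturated fatty acids, had 211, 203 and 219 CPM at t0, 153, 142 and 137 CPM at t6 and 229, 244 and 232 CPM at t48. Its t6 libraries lay below and its t48 libraries above those of t0, at -0.55 (SE 0.060, adjusted p = 3.33e-05) for t6 and 0.16 (SE 0.059, adjusted p = 0.0703) for t48, of which the t48 change passed only with the block (adjusted p = 0.0135). Against t6, t48 was higher at 0.71 (SE 0.060, adjusted p = 1.8e-06). Fads1, its partner desaturase, had 94.8, 109.9 and 98.9 CPM at t0, 102, 101 and 92.2 CPM at t6 and 131, 145 and 128 CPM at t48. It was higher at t48 than at both earlier times, at 0.41 (SE 0.085, adjusted p = 0.00292) against t0 and 0.46 (SE 0.085, adjusted p = 0.00126) against t6.

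With the cell line as a block, which called 34.7% of all genes, 5 fatty acid genes were called at t6, against 3 without it. Over the 9 fits without a library or line, 1 to 6 fatty acid genes were called at t48 and 2 to 4 at t6. Without line 6, calls over all genes fell from 3402 to 1592 at t48 and from 2716 to 994 at t6. The t48 calls of Acaca, Elovl6, Fads1, Scd1 and Scd2 were each lost at least once, namely Acaca in 2 (adjusted p up to 0.0674, without line 16), Elovl6 in 5 (adjusted p up to 0.162, without the t0 library of line 7), Fads1 in 1 (adjusted p up to 0.052, without line 6), Scd1 in 1 (adjusted p up to 0.0795, without line 6) and Scd2 in 3 (adjusted p up to 0.0935, without line 16), and without line 6 only Acly stayed. At t6 Scd1 was lost in 3 (adjusted p up to 0.0944, without line 6). For t48 against t6, Elovl6 was lost in 2 of 9 fits and Fasn in 6 of 9 (adjusted p up to 0.0872 and 0.129, both without line 6).

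The 2 measured LXR targets moved against each other at t6. Abca1, which exports cholesterol to lipoproteins, had few reads, with 1.81, 4.19 and 2.25 CPM at t0, 0.983, 1.19 and 0.826 CPM at t6 and 3.58, 6.18 and 3.98 CPM at t48 in NLS libraries. It was lower at t6 than at t0 (-1.46, SE 0.33, adjusted p = 0.00756) and higher at t48 than at t6 (2.195, SE 0.33, adjusted p = 0.000254), with no overlap in either comparison. Line 7 was above the other two NLS lines at t0 and t48, and the t6 call was lost without line 16 (adjusted p = 0.0509). At t48 against t0 the change of 0.73 (SE 0.30, adjusted p = 0.0871) passed only when lines were blocked (adjusted p = 0.00649). Mylip, a ubiquitin ligase that acts on lipoprotein receptors, had 8.67, 10.1 and 11 CPM at t0, 14.7, 14 and 16.4 CPM at t6 and 9.23, 8.31 and 8.55 CPM at t48. Its t6 libraries lay above all others of the NLS lines, at 0.60 (SE 0.10, adjusted p = 0.00102) against t0, and at t48 it was lower than at t6 at -0.79 (SE 0.10, adjusted p = 7.29e-05). Abcg1, a second exporter, was not tested because it had at most 4 reads in a library.

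In the LacZ lines 4 of the 18 sterol enzymes were lower at t48 than at t0 and none higher, in a comparison in which 9.87% of all genes tested were lower and 8.68% higher, and the median log2 fold change was -0.12. Mvk had 32.9 and 32.7 CPM at t48 against 53.9 and 43.3 CPM at t0, with a log2 fold change of -0.57 (SE 0.11, adjusted p = 0.00315). Mvd had 33.2 and 29.8 CPM at t48 against 46.4 and 41 CPM at t0, with -0.47 (SE 0.11, adjusted p = 0.0085). Both early mevalonate enzymes thus had t48 libraries below the t0 libraries. Msmo1 had 157 and 177 CPM at t48 against 201 and 206 CPM at t0, with -0.29 (SE 0.069, adjusted p = 0.0124). Tm7sf2 had 3.28 and 3.17 CPM at t48 against 6.6 and 6.59 CPM at t0, with -1.03 (SE 0.26, adjusted p = 0.0139). No LacZ t48 library of these enzymes reached a t0 library. Leaving out 1 library or line, in 6 fits, left 0 to 2 sterol enzymes called. Calls over all genes fell in each of these fits too. Each holds 1 library in a LacZ group. Such a group is assumed to vary like the other groups, here and wherever a LacZ library is left out below. The losses were Mvk in 1 (adjusted p up to 0.148, without line 10), Mvd in 4 (adjusted p up to 0.128, without line 10), Msmo1 in 5 (adjusted p up to 0.215, without line 10) and Tm7sf2 in 6 (adjusted p up to 0.18, without line 12).

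Of the 14 enzymes that fell at t48 in the NLS lines, 3 (Mvk, Mvd, Msmo1) were called in the LacZ lines and 11 were not. Idi1 had 154 and 153 CPM at t48 against 168 and 168 CPM at t0. Hmgcs1 had 237 and 259 CPM at t48 against 272 and 277 CPM at t0. Sc5d had 78.4 and 87.4 CPM at t48 against 87.4 and 87.2 CPM at t0. The t48 libraries of Idi1 and Hmgcs1 lay below those of t0, those of Sc5d overlapped, and none of the 3 was called, with log2 fold changes of -0.13, -0.15 and -0.075. Fdps had 255 and 261 CPM at t48 against 279 and 283 CPM at t0. Lss had 79.5 and 86.7 CPM at t48 against 86.7 and 93.6 CPM at t0. These were not called either, at -0.12 and -0.12. Acat2 had 127 and 131 CPM at t48 against 112 and 116 CPM at t0. Sqle had 644 and 629 CPM at t48 against 605 and 599 CPM at t0. Fdft1 had 217 and 236 CPM at t48 against 199 and 214 CPM at t0. For Acat2, Sqle and Fdft1 the t48 libraries lay above those of t0 without a call, at 0.18, 0.081 and 0.14. Cyp51 had 244 and 255 CPM at t48 against 251 and 260.4 CPM at t0, which overlapped. Pmvk had 35 and 34.5 CPM at t48 against 41.4 and 35.7 CPM at t0. Nsdhl had 72.8 and 82.4 CPM at t48 against 78.2 and 96.2 CPM at t0. The last 3 gave -0.034, -0.15 and -0.17 with no call. Dhcr7 had 68 and 68.8 CPM at t48 against 57.7 and 61.4 CPM at t0, at 0.20 (SE 0.070, adjusted p = 0.0648). With the cell line as a block, which called 33% of all genes, 6 sterol enzymes were lower and 2 higher. It added Hmgcs1 and Hsd17b7 as lower (adjusted p = 0.0441 and 0.00201) and Dhcr7 and Acat2 as higher (adjusted p = 0.0196 and 0.015).

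No regulator or transport gene was called in the LacZ lines by edgeR or by DESeq2, and 1 regulator had an unadjusted p below 0.05 in edgeR. How many of all genes lay below that threshold was not counted. Insig1 had 181 and 188 CPM at t48 against 163 and 167 CPM at t0. Stard4 had 129 and 132 CPM at t48 against 121 and 129 CPM at t0. The t48 libraries of both lay above their t0 libraries, where those of the NLS lines lay below. Srebf2 had 499 and 453 CPM at t48 against 524 and 474 CPM at t0. Npc1 had 64.7 and 70.7 CPM at t48 against 59.4 and 68.4 CPM at t0. Both overlapped between the times. With the block Insig1 was higher and Scap lower (adjusted p = 0.0306 and 0.00662).

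Among the fatty acid genes Fads2 was higher in the LacZ lines, with 272 and 300.4 CPM at t48 against 214 and 231 CPM at t0 and a log2 fold change of 0.36 (SE 0.073, adjusted p = 0.00443), a call lost in 4 of 6 fits (adjusted p up to 0.0757, without line 12). Acly had 309 and 273 CPM at t48 against 293 and 306 CPM at t0. Acaca had 135 and 141 CPM at t48 against 126 and 148 CPM at t0. Neither was called, and both overlapped between the times. Scd1 had 522 and 578 CPM at t48 against 556 and 614 CPM at t0. Scd2 had 2405 and 2459 CPM at t48 against 2558 and 2722 CPM at t0. These were not called either, at -0.090 and -0.12. Elovl6 had 95.6 and 91.3 CPM at t48 against 108 and 104 CPM at t0. Fads1 had 126 and 143 CPM at t48 against 102 and 124 CPM at t0. The block called 3 fatty acid genes against 1 without it, and 33% of all genes. Elovl6 was then lower and Fads1 higher (adjusted p = 0.0287 and 0.00266). Mylip had 13.8 and 14.9 CPM at t48 against 21.4 and 22.4 CPM at t0 and was lower, at -0.61 (SE 0.12, adjusted p = 0.0039), a call lost in 2 of 6 fits (adjusted p up to 0.104, without line 10). Abca1, with few reads, had 0.667 and 0.461 CPM at t48 against 0.804 and 0.949 CPM at t0 and was not called.

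**Figure D3:**
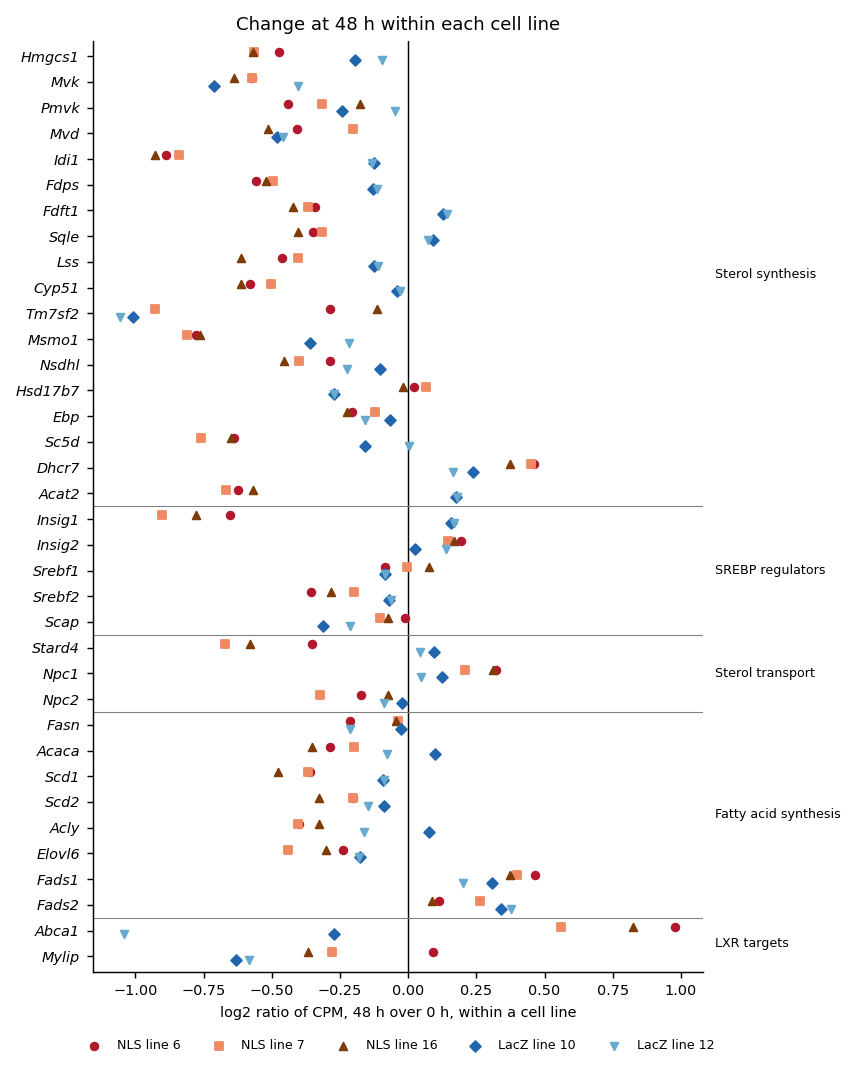
Log2 ratio of CPM at 48 h over 0 h within each cell line, on the horizontal axis, for the 36 tested genes in rows, with NLS lines above LacZ lines in each row. Ratios of 16 of the 18 sterol enzymes, all but Dhcr7 and Hsd17b7, lie left of 0 in the 3 NLS lines. Of all genes tested 49.86% to 49.95% were lower at 48 h in an NLS line, by ratios with 0.1 CPM added. The share lower in all 3 NLS lines was not counted. The medians over the 18 are -0.45, -0.45 and -0.52 in the NLS lines and nearer to 0 in the LacZ lines, at -0.13 and -0.11. Of the 16, Tm7sf2 lies farther left in the LacZ lines, and Acat2, Fdft1 and Sqle lie right of 0 in both LacZ lines.

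The difference between the NLS and the LacZ change at 48 h was then tested as an interaction. It was lower in the NLS lines for 8 of the 18 sterol enzymes and higher for none, in a test that called 11.2% of all genes lower and 12.1% higher. Acat2 (-0.80, SE 0.11, adjusted p = 0.000177), Idi1 (-0.75, SE 0.17, adjusted p = 0.00735) and Sc5d (-0.61, SE 0.17, adjusted p = 0.0188) had the largest differences on the log2 scale. Cyp51 (-0.53, SE 0.14, adjusted p = 0.0144), Fdft1 (-0.51, SE 0.12, adjusted p = 0.00708) and Msmo1 (-0.50, SE 0.091, adjusted p = 0.00158) followed. Sqle (-0.44, SE 0.067, adjusted p = 0.000474) and Fdps (-0.40, SE 0.085, adjusted p = 0.00416) completed the 8. Insig1 among the regulators (-0.95, SE 0.19, adjusted p = 0.00419) and Stard4 among the transport genes (-0.61, SE 0.15, adjusted p = 0.0115) were called in the same direction. Of the fatty acid genes only Acly was called (-0.33, SE 0.084, adjusted p = 0.0115). For Mvk and Mvd, lower at 48 h in both constructs, the interaction was -0.028 (SE 0.14, adjusted p = 0.916) and 0.10 (SE 0.14, adjusted p = 0.673), with neither called. The difference for Dhcr7 was 0.23 (SE 0.091, adjusted p = 0.0853) and also missed the threshold.

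In 15 fits without 1 library or line the interaction called 4 to 10 sterol enzymes, the fewest without line 10, and 0 to 3 fatty acid genes. The calls that failed were Sc5d in 6 (adjusted p up to 0.151, without line 12), Cyp51 in 4 (adjusted p up to 0.101, without line 10), Fdft1 in 2 (adjusted p up to 0.0535, without line 12), Idi1 in 2 (adjusted p up to 0.0782, without line 10), Insig1 in 2 (adjusted p up to 0.0531, without line 10), Stard4 in 3 (adjusted p up to 0.101, without line 10) and Acly in 4 (adjusted p up to 0.169, without line 10). With the cell line as a block, which called 37.4% of all genes, Hmgcs1 and Lss were added as lower (adjusted p = 0.000304 and 0.00272) and Hsd17b7 and Dhcr7 as higher (adjusted p = 0.00599 and 0.0327). It also added Srebf2, Acaca, Scd1 and Fads2 as lower (adjusted p = 0.0223, 0.00831, 0.00128 and 0.0396) and Npc1, Abca1 and Mylip as higher (adjusted p = 0.0444, 0.0145 and 0.0314). Both responses enter with their own t0 libraries, and with 2 LacZ lines the LacZ response rests on few libraries. Over all genes the interaction called 3045 with all libraries and 1810 to 3176 without an NLS library or line. Its calls over all genes fell wherever a LacZ library or line was left out.

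**Figure D4:**
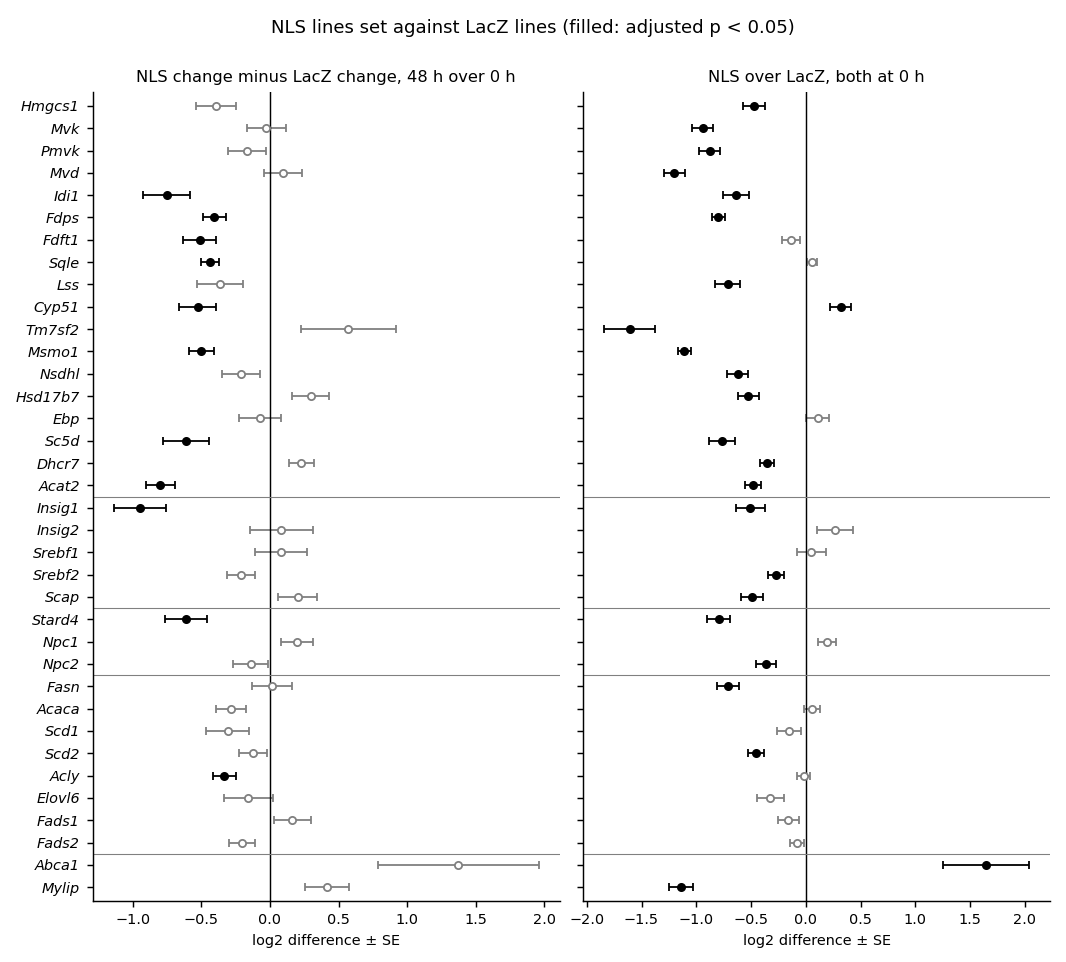
Log2 differences with standard errors for the 36 tested genes in rows, for the NLS change minus the LacZ change from 0 to 48 h (left) and for NLS over LacZ libraries at 0 h (right), filled where the adjusted p was below 0.05. Insig1 (-0.95) and Acat2 (-0.80) lie farthest left among the filled points on the left, and Tm7sf2 (-1.61) on the right.

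NLS lines also differed from LacZ lines before doxycycline. At t0, 14 of the 18 sterol enzymes were lower in NLS than in LacZ libraries and 1, Cyp51, was higher, where 22.4% of all genes tested were lower and 21.1% higher, and the median log2 difference was -0.63. At t48, 14 were lower and none higher, with 22.2% of all genes lower and 23% higher, and the median was -1.003. The largest called differences at t0 were Tm7sf2 (-1.61, SE 0.23, adjusted p = 8.35e-05), Mvd (-1.20, SE 0.10, adjusted p = 3.69e-07) and Msmo1 (-1.11, SE 0.063, adjusted p = 1.14e-08). Msmo1 had 93.9, 98.8 and 90.4 CPM in NLS t0 libraries against 201 and 206 CPM in LacZ t0 libraries. At t48 it had 54.8, 56.3 and 53.2 CPM in NLS and 157 and 177 CPM in LacZ libraries, a log2 difference of -1.61 (SE 0.064, adjusted p = 2.48e-10). Sqle was at 0.058 (SE 0.047, adjusted p = 0.344) at t0, with no call, and at -0.38 (SE 0.047, adjusted p = 1.91e-05) at t48. Cyp51 was higher at t0 (0.32, SE 0.10, adjusted p = 0.0182), a call lost in 6 of 10 fits (adjusted p up to 0.123, without line 10), and was at -0.21 (SE 0.10, adjusted p = 0.0927) at t48. Constructs are nested in lines, so that a block by line cannot be fitted to these 2 comparisons. Calls over all genes fell in every fit of them without a LacZ library or line.

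Outside the enzymes, Stard4 (-0.80, SE 0.11, adjusted p = 4.79e-05), Insig1 (-0.51, SE 0.13, adjusted p = 0.00865), Scap (-0.49, SE 0.10, adjusted p = 0.00129), Npc2 (-0.37, SE 0.091, adjusted p = 0.00527) and Srebf2 (-0.28, SE 0.073, adjusted p = 0.00769) were lower in NLS libraries at t0. The call of Insig1 was lost in 4 of 10 fits, and those of Npc2 and Srebf2 in 2 of 10 each (adjusted p up to 0.0777, 0.0704 and 0.132). At t48 Insig1 (-1.46, SE 0.13, adjusted p = 2.99e-06) and Stard4 (-1.41, SE 0.11, adjusted p = 2.08e-07) were again lower and Npc1 was higher (0.39, SE 0.081, adjusted p = 0.00132), with the call of Scap lost in 7 of 10 fits (adjusted p up to 0.205). Among the fatty acid genes, at t0 Fasn (-0.71, SE 0.10, adjusted p = 8.41e-05) and Scd2 (-0.46, SE 0.071, adjusted p = 0.000165) were lower and none higher. These 2 of the 8 are near the share over all genes, of which 22.4% were lower and 21.1% higher. At t48 7 of the 8 were lower, where 22.2% of all genes were lower and 23% higher. The exception was Fads1 (0.0034, SE 0.095, adjusted p = 0.983). Fasn had 217, 202 and 219.8 CPM in NLS t0 libraries and 368 and 331 CPM in LacZ t0 libraries, without overlap. At t48 the calls of Acaca, Elovl6, Fads2 and Scd1 were lost in 7 of 10, 2 of 10, 2 of 10 and 1 of 10 fits (adjusted p up to 0.137, 0.079, 0.0608 and 0.0524). Abca1 was higher in NLS libraries at both times, at 1.64 (SE 0.39, adjusted p = 0.00419) for t0 and 3.02 (SE 0.42, adjusted p = 5.91e-05) for t48. Mylip was lower at both, at -1.14 (SE 0.11, adjusted p = 2e-06) for t0 and -0.73 (SE 0.11, adjusted p = 0.000151) for t48. The t0 call of Abca1 was lost without line 10 (adjusted p = 0.0533).

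Cell lines of 1 construct were compared with the time label as a block. The mean change with time is then taken out, and p-values measure how far the difference between lines varies over the times. Without the time label in the fit edgeR called no sterol enzyme or fatty acid gene between any 2 NLS lines (adjusted p of at least 0.553). With it, line 7 against line 16 had 8 sterol enzymes higher and 1, Ebp, lower, where 22.6% of all genes tested were called in either direction. The higher ones were Hmgcs1, Idi1, Fdft1, Lss, Cyp51, Hsd17b7, Sc5d and Acat2, with Idi1 at 0.33 (SE 0.049, adjusted p = 0.000168). Insig2 (0.40, SE 0.044, adjusted p = 8.4e-06) and Insig1 (0.38, SE 0.047, adjusted p = 2.51e-05) were also higher, and so were Elovl6, Scd1, Fads1 and Scd2 of the fatty acid genes, of which Elovl6 was at 0.33 (SE 0.049, adjusted p = 0.000144), while Fasn was lower (-0.15, SE 0.049, adjusted p = 0.0321). Srebf1 (-0.23, SE 0.071, adjusted p = 0.0314) and Scap (-0.21, SE 0.057, adjusted p = 0.0133) were lower, and Npc2 (0.21, SE 0.046, adjusted p = 0.00294), Stard4 (0.19, SE 0.060, adjusted p = 0.0305) and Abca1 (0.71, SE 0.22, adjusted p = 0.0268) higher. Line 7 against line 6 had 4 sterol enzymes higher (Hmgcs1, Idi1, Lss, Cyp51) and 1 lower (Ebp), and 2 fatty acid genes higher (Elovl6, Scd1), where 11.1% of all genes were called. Insig2 (0.33, SE 0.044, adjusted p = 0.000159), Insig1 (0.21, SE 0.047, adjusted p = 0.00805), Npc2 (0.19, SE 0.046, adjusted p = 0.0109), Stard4 (0.25, SE 0.060, adjusted p = 0.0128) and Abca1 (0.82, SE 0.22, adjusted p = 0.022) were higher in line 7 here too. Line 6 against line 16 had 1 sterol enzyme higher, Hsd17b7 (0.24, SE 0.050, adjusted p = 0.013), with 2.26% of all genes called. The LacZ lines 12 and 10 had no member called by edgeR, with 0.123% of all genes called. DESeq2 called 1 member between them, a fatty acid gene, and 45 of all genes. Of the 36 members 11 had an unadjusted p below 0.05. The share of all genes below that unadjusted threshold was not counted, so the 0.123% cannot be set beside the 11. Of the line 7 against line 16 calls, those lost in some of the 6 fits without 1 library were Fdft1 in 4 (adjusted p up to 0.123, without the t0 library of line 7), Hsd17b7 in 4 (adjusted p up to 0.114, without the t48 library of line 16), Ebp in 2 (adjusted p up to 0.0823, without the t6 library of line 7), Acat2 in 1 (adjusted p up to 0.0696, without the t6 library of line 16), Fads1 in 4 (adjusted p up to 0.131, without the t0 library of line 7), Fasn in 4 (adjusted p up to 0.214, without the t6 library of line 16), Scd2 in 3 (adjusted p up to 0.14, without the t48 library of line 16), Srebf1 in 5 (adjusted p up to 0.29, without the t6 library of line 16), Scap in 4 (adjusted p up to 0.0816, without the t48 library of line 7), Stard4 in 3 (adjusted p up to 0.292, without the t0 library of line 7) and Abca1 in 5 (adjusted p up to 0.222, without the t0 library of line 7). Against line 6 the losses were Hmgcs1 in 4 (adjusted p up to 0.186, without the t0 library of line 7), Lss in 4 (adjusted p up to 0.105, without the t48 library of line 7), Cyp51 in 2 (adjusted p up to 0.0997, without the t48 library of line 7), Ebp in 2 (adjusted p up to 0.0573, without the t6 library of line 7), Idi1 in 1 (adjusted p up to 0.0503, without the t0 library of line 7), Scd1 in 1 (adjusted p up to 0.0519, without the t0 library of line 6), Insig1 in 2 (adjusted p up to 0.0943, without the t0 library of line 7), Npc2 in 1 (adjusted p up to 0.103, without the t0 library of line 7), Stard4 in 2 (adjusted p up to 0.128, without the t0 library of line 7) and Abca1 in 4 (adjusted p up to 0.193, without the t0 library of line 7). The call of Hsd17b7 between lines 6 and 16 was lost in 4 of 6 fits (adjusted p up to 0.113).

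A wider list of 41 other genes of lipid synthesis, storage and sterol handling, 37 of them tested, was set beside the members. At t48 against t0 in the NLS lines 2 of the 37 tested were higher and 5 lower (14.8% and 11.3% of all genes). Dgat2, which makes triglycerides, was higher (1.26, SE 0.13, adjusted p = 1.3e-05), with 3.76, 4.1 and 4.55 CPM at t0, 3.89, 3.42 and 3.63 CPM at t6 and 9.13, 10.4 and 10.2 CPM at t48, and so was Gramd1a, a sterol carrier (0.71, SE 0.12, adjusted p = 0.000556). Lipa, the lysosomal acid lipase (-0.48, SE 0.076, adjusted p = 0.000459), Acat1, the mitochondrial thiolase (-0.35, SE 0.068, adjusted p = 0.00197), Slc25a1, the citrate carrier (-0.30, SE 0.062, adjusted p = 0.00294), and Rdh11, a retinol dehydrogenase (-0.25, SE 0.059, adjusted p = 0.00613), were lower. At t6 2 were higher and 8 lower (11.6% and 9.23% of all genes). Soat1, which esterifies cholesterol, was higher (0.30, SE 0.076, adjusted p = 0.0119), and so was Cyp7b1, an oxysterol hydroxylase with 0.0443, 0.131 and 0 CPM at t0, 0.562, 0.674 and 0.735 CPM at t6 and 0.0942, 0 and 0.106 CPM at t48. Acsl1, Me1, Fabp5 and Gpam were lower, of which Fabp5, a fatty acid binding protein, had 195, 136 and 181 CPM at t0, 106, 85.3 and 108 CPM at t6 and 211, 192 and 219.7 CPM at t48. At t48 against t6 10 were higher and 6 lower (14.6% and 13.6% of all genes), led by Dgat2 (1.44, SE 0.13, adjusted p = 3.89e-06) and Fabp5 (1.05, SE 0.12, adjusted p = 7.29e-05) among the higher and by Soat1 (-0.36, SE 0.076, adjusted p = 0.00315) among the lower.

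In the LacZ lines 2 of the 37 were higher and 4 lower at t48, where 8.68% of all genes were higher and 9.87% lower. The higher ones were G6pdx, the first enzyme of the pentose phosphate pathway (0.48, SE 0.067, adjusted p = 0.000392), and Tmem97, a sterol-regulated membrane protein (0.36, SE 0.073, adjusted p = 0.00487). Mbtps1, the protease that cuts SREBP in the Golgi (-0.42, SE 0.052, adjusted p = 0.000181), Rdh11 (-0.34, SE 0.072, adjusted p = 0.00559), Acss2, an acetyl-CoA synthetase (-1.15, SE 0.25, adjusted p = 0.00622), and Aacs, an acetoacetyl-CoA synthetase (-0.52, SE 0.15, adjusted p = 0.0304), were lower. The interaction called 3 higher and 5 lower in the NLS lines, against 12.1% and 11.2% of all genes. Mbtps1 (0.31, SE 0.068, adjusted p = 0.00487), Dgat2 (1.06, SE 0.23, adjusted p = 0.00492) and Gramd1a (0.80, SE 0.19, adjusted p = 0.00768) were the higher ones, and G6pdx (-0.60, SE 0.087, adjusted p = 0.000328), Tmem97 (-0.50, SE 0.094, adjusted p = 0.00207), Pgd (-0.40, SE 0.092, adjusted p = 0.00765) and Slc25a1 (-0.32, SE 0.10, adjusted p = 0.0286) were among the lower. Between constructs 9 were higher and 12 lower in NLS libraries at t0 (21.1% and 22.4% of all genes) and 9 higher and 14 lower at t48 (23% and 22.2% of all genes). Dgat2 was higher, at 0.82 (SE 0.17, adjusted p = 0.00118) for t0 and 1.88 (SE 0.16, adjusted p = 5.4e-07) for t48. Fabp5 was higher too, at 1.53 (SE 0.15, adjusted p = 6.06e-06) for t0 and 1.93 (SE 0.15, adjusted p = 7.94e-07) for t48. Lpin1, a phosphatidate phosphatase, was lower, at -0.84 (SE 0.13, adjusted p = 0.000183) for t0 and -0.92 (SE 0.14, adjusted p = 9.58e-05) for t48. Erlin2, a membrane protein of the endoplasmic reticulum, was lower at -0.57 (SE 0.080, adjusted p = 7.3e-05) for t0 and -0.54 (SE 0.081, adjusted p = 0.0001) for t48.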

How the data were processed

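Per the labels' protocols, RNA of cultured mouse melanoma lines was extracted with Trizol, and paired-end libraries were made with the Truseq stranded mRNA kit. The authors deposited estimated counts and TPM values per transcript, 1 file per library, which per the submitters' processing notes came from Salmon 1.2.0 and GRCm38. Its transcript set, and options such as the use of strand, were not given in the sources used here. Reads of overlapping or near-identical genes may therefore be divided imperfectly. Of 116546 transcripts 115977 (99.5%) matched the GENCODE M21 annotation and were summed to 35498 genes, and the expected counts were then rounded to whole numbers. Reads of unmatched transcripts were 0.121% to 0.165% of a library. Libraries held 18512887 to 22584628 reads. There were 0 columns of other samples.

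The main test was edgeR 4.0.16's quasi-likelihood test in R 4.3.3, with TMM scaling, the filterByExpr filter (13044 genes) and 1 fit with a mean for each of the 5 groups. A gene was called where its Benjamini-Hochberg adjusted p over all genes tested was below 0.05, and SE is the standard error of the log2 fold change. CPM values were computed with the TMM-scaled library sizes, and no pseudocount entered them. Lines were compared with the time label as a block. Alternatives were DESeq2 1.42.0, its size factors, no filter, the compared groups alone, the cell line as a block, and fits without 1 library or line. The last were run for the 37 members and not for the wider list. The procedure was also tested on simulated data. Promoter sequences are from RefSeq, GRCm38.p6.

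The number of a line pairs libraries, since it marks the same cell line. Deviations of the libraries from their group means correlated at 0.025 to 0.282 in the 9 same-line pairs of NLS libraries, at -0.263 to 0.0524 in the 18 other NLS pairs, and at -0.0201 in the 2 same-line LacZ pairs. Deviations within a group sum to 0, so the values of same-line and other pairs are tied to each other. With 2 LacZ lines both same-line pairs give the same value by construction and are not 2 observations. Between libraries of a group, chi-square per degree of freedom was at least 7.26, so none was counted as a repeat of another.

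The members and gene lists were chosen with earlier results of these data known. Values in every library are given for members called in at least 1 of the 4 comparisons NLS t6 and t48 with t0, LacZ t48 with t0, and their interaction. Of the wider list up to 4 genes in each direction with the smallest p are named per comparison. Some genes of the pathway are not reported here.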

Additional observations from a re-analysis of the deposited data

Results flagged for a closer look

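The change at 48 h in the NLS lines differed from that in the LacZ lines, by the interaction test in edgeR, for 11 of the 36 tested genes, each with the lower change in the NLS lines. Over all genes tested the difference was called lower for 11.2% and higher for 12.1%. On the log2 scale the NLS change minus the LacZ change was -0.95 for Insig1, -0.80 for Acat2, -0.75 for Idi1, -0.61 for Stard4, -0.61 for Sc5d and -0.53 for Cyp51. It was -0.51 for Fdft1, -0.50 for Msmo1, -0.44 for Sqle, -0.40 for Fdps and -0.33 for Acly. Groups of 2 or 3 libraries were too small for a test of single outlying libraries.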

How the results depend on the processing

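The counts of called sterol enzymes and fatty acid genes moved by more than 1.5 times under these alternatives. With the cell line as a replicate block, which pairs libraries of a line, 5 fatty acid genes were called for NLS t6 against t0 (3 without the block). For LacZ t48 against t0 the block called 8 sterol enzymes (4 without it) and 3 fatty acid genes (1 without it), and for the interaction 4 fatty acid genes (1 without it). Over all genes the block raised the calls from 2716 to 4527 for NLS t6 against t0. For LacZ t48 against t0 the block raised them from 2419 to 4308, and for the interaction from 3045 to 4875. It ended no member's call in the time comparisons or the interaction. Without the time label as a block, 0 sterol enzymes and 0 fatty acid genes were called for NLS line 7 against line 16 (9 and 5 with it), 0 and 0 for line 7 against line 6 (5 and 2), and 0 sterol enzymes for line 6 against line 16 (1 with it). Over all genes the calls then fell from 2950 to 9, from 1446 to 0 and from 295 to 1 in these comparisons. With only the libraries compared in the fit, line 7 against line 6 had 2 sterol enzymes and 1 fatty acid gene, and LacZ line 12 against line 10 had 1 and 2, against 0 and 0. Over all genes the calls then moved from 1446 to 744 and from 16 to 303. DESeq2 called 0 sterol enzymes for line 6 against line 16 and 1 fatty acid gene for LacZ line 12 against line 10, and with no filter on low counts 2 fatty acid genes were called between these LacZ lines. Over all genes DESeq2 called 228 for line 6 against line 16 and 45 between the LacZ lines, against 295 and 16. With no filter 83 of all genes were called between the LacZ lines. The cause was not tested. No member's called change reversed its sign under any alternative.

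Calls over all genes also moved without 1 library or line. They ranged from 994 to 2817 for NLS t6 against t0. For t48 against t0 they ranged from 1592 to 3076, and for t48 against t6 from 2034 to 3333. Without an NLS library or line they ranged from 1810 to 3176 for the interaction. For NLS against LacZ they then ranged from 4489 to 5687 at t0 and from 4762 to 5966 at t48. For LacZ t48 against t0, the interaction and NLS against LacZ, they fell wherever a LacZ library or line was left out. Without 1 library they ranged from 1503 to 2474 for line 7 against line 16, from 596 to 1279 against line 6, and from 113 to 583 for line 6 against line 16. Without 1 library or line, sterol and fatty acid calls ranged from 5 to 10 and from 2 to 4 for NLS t6 against t0, from 12 to 15 and from 1 to 6 for t48 against t0, and from 5 to 8 and from 3 to 6 for t48 against t6. For LacZ t48 against t0 both ranged from 0 to 2, and for the interaction from 4 to 10 and from 0 to 3. For NLS against LacZ they ranged from 14 to 15 and from 2 to 4 at t0, and from 14 to 15 and from 4 to 7 at t48. Line 7 gave 7 to 8 and 2 to 5 against line 16, and 2 to 5 and 1 to 3 against line 6. Line 6 against line 16 gave 0 to 1 for both, and LacZ line 12 against line 10 gave 0 for both. Groups hold 2 or 3 libraries, which limits the precision, and a group left with 1 library was assumed to vary like the others.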

Other observations

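The share of a gene's estimated reads that Salmon gave to each transcript varied between libraries. For Srebf1 the most abundant transcript, Srebf1-201, held 62.0% to 73.4% of the gene's reads and Srebf1-207 held 8.81% to 30.0%. For Acly the transcripts Acly-203 (31.7% to 62.8%) and Acly-201 (34.6% to 65.7%) held most reads, and for Mvk Mvk-201 held 36.1% to 65.7%. These shares are estimates of the authors' program and were not compared between groups.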
